A study of Mus musculus with 16 samples.

Results

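The genes described here are the 10 core genes of MHC class I antigen presentation and antigen processing, picked by symbol from the deposited table: H2-K1, H2-D1, B2m, Tap1, Tap2, Tapbp, Psmb8, Psmb9, Psmb10 and Nlrc5. They are 10 of 32078 genes in the table, each symbol occurs once, and all 10 passed the filter on low values that left 19189 genes. RNA was sequenced from whole skin of mice aged 7 weeks at days 0, 1, 3 and 5 of topical SDS (sodium dodecyl sulfate, a detergent that irritates skin), with or without Topsym. Topsym is known as a trade name of fluocinonide, a potent topical glucocorticoid, but the labels do not say what it holds. The 8 groups of 2 libraries are SDS with Topsym at days 0, 1, 3 and 5 and SDS alone at the same days. All groups carry SDS in their titles, so none stands for skin without SDS at a later day, and time and SDS cannot be told apart. The labels give 4 days of topical treatment while the titles run to day 5, so it is not known whether day 5 skin was still being treated, and the series' design text describes another experiment, on sorted stem cells. Strain, sex and genotype are not given in the sources used here, nor is the treatment behind the label of the day 0 Topsym group. Whether both libraries of a group are from different mice is not said in the labels, so the p-values below measure only the spread between these libraries.

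Class I molecules show peptides from inside the cell to CD8 T cells and are sensed by NK cells. A heavy chain (H2-K1, H2-D1) pairs with B2m, the TAP transporter (Tap1 with Tap2) brings peptides into the endoplasmic reticulum, and tapasin (Tapbp) holds the empty molecule to the transporter while peptide is loaded. Interferon gamma raises these genes together with the immunoproteasome subunits Psmb8, Psmb9 and Psmb10, which take the place of Psmb5, Psmb6 and Psmb7 in new proteasomes. Nlrc5 is a transactivator that works at class I promoters. In skin, nearly all nucleated cells carry class I, and glucocorticoids are known to lower many interferon responses.

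Of the 10 genes, 7 lie on chromosome 17, in or near the MHC (GRCm38). H2-K1 spans chr17:33996017-34000347 on the minus strand and H2-D1 spans chr17:35262730-35267499 on the plus strand. Psmb9 (chr17:34181987-34187764, minus strand), Tap1 (chr17:34187553-34197225, plus strand), Psmb8 (chr17:34197721-34201454, plus strand) and Tap2 (chr17:34203527-34216321, plus strand) are neighbours, and Tapbp lies at chr17:33915899-33929292. B2m is at chr2:122147686-122153083, Psmb10 at chr8:105935735-105938444 and Nlrc5 at chr8:94434356-94527272. All but H2-K1 and H2-D1 overlap a gene on the other strand, and for B2m and for the pair Tap1 and Psmb9 that gene codes for protein. The library kit keeps the strand, per the labels, but the sources used here do not say whether counting used it. Reads of these 8 genes may therefore be mixed with those of their neighbours. Tapbp also overlaps Zbtb22, which codes for protein, on its own strand, where counting by strand would not tell them apart.

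Promoter windows of 300 bases, from 250 before to 50 after the annotated start, were matched for 8 of the 10 genes in RefSeq (GRCm38.p6), all but Tap2 and Nlrc5. The windows of H2-K1 (chr17:34000298-34000597, minus strand) and H2-D1 (chr17:35262844-35263143, plus strand), of B2m (chr2:122147437-122147736, plus strand) and of Psmb8 (chr17:34197945-34198244, plus strand) are printed because the heavy chain promoters share long runs and the others hold letters of known interferon motifs. Class I promoters are known to carry an NF-kappaB element and an interferon response element before the start. In H2-K1 and H2-D1 the capitals mark the 2 longest runs that both windows share without gaps. In B2m they mark GAAACTGAAA, a match to the interferon-stimulated response element, searched as GAAA, any 2 bases and GAAA. In Psmb8 they mark TTCCCAGAA, a match to the STAT letters TTCNNNGAA. The printed windows of Psmb8 and H2-D1 lie wholly within the gene spans given above, so the starts of the 2 annotations differ there. By those spans, the marked letters of Psmb8 and H2-D1 lie inside the gene and not before its start.
H2-K1: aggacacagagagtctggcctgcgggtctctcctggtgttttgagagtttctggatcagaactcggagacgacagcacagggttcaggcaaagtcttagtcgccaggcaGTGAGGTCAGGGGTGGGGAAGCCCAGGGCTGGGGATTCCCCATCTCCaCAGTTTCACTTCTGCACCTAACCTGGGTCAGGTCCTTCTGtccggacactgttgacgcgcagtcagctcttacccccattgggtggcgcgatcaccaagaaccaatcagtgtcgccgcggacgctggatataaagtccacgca
H2-D1: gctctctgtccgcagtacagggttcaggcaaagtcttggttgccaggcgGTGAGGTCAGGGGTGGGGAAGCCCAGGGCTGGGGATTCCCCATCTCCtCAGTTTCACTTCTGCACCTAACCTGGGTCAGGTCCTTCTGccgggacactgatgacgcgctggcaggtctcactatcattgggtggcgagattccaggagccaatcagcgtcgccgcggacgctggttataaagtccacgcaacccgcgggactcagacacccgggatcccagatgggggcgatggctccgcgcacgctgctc
B2m: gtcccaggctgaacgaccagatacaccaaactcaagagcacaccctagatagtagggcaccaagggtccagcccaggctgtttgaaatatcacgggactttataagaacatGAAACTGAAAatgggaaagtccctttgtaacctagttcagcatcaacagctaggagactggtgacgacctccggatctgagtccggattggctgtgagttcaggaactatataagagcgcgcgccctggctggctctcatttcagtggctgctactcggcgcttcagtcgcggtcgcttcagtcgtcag
Psmb8: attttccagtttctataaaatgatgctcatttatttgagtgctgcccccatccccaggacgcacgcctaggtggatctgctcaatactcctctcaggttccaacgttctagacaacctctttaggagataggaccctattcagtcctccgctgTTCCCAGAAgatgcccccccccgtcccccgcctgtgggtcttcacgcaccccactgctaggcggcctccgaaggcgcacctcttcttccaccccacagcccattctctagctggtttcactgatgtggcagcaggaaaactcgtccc
At the best shift without gaps, the H2-K1 and H2-D1 windows had the same base at 176 of 240 positions (73.3%). The 2 shared runs, of 47 and 40 bases, are parted by 1 base that differs, and lie at -141 to -95 and -93 to -54 from the start in H2-K1 and at -201 to -155 and -153 to -114 in H2-D1. Among 32851 RefSeq windows of this length, searched on both strands, each run was in 3 windows (0.00913%), all of H2-K1, which has more than 1 window, or H2-D1. Looking for shared runs was decided after the windows had been seen. The searched letters of the interferon-stimulated element were in 3.44% of all windows and TTCNNNGAA in 8.30%, and each was in 1 of the 8 genes. Only this strict form was searched, so windows without a match, those of H2-K1 and H2-D1 among them, may still hold a variant of the element. A loose NF-kappaB motif, GGG and CC with any 5 bases between, was in 5 of 8 genes and 50.8% of windows; the longer run of H2-K1 and H2-D1 holds it as GGGGATTCCC, and its matches can overlap each other. TGACG, the core of the cyclic AMP response element, was in 5 of 8 genes and 20.8% of windows, and CCAAT, read by NF-Y, in 6 of 8 and 37.4%. The Tap1 and Psmb9 windows share 275 bases, since the genes start head to head and overlap by 212 bases, so they are nearly 1 sequence counted for both. A match is a description of letters and was not tested for binding.

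Values below are normalised reads, which are read counts that the authors divided by 1 factor per library. A difference is that of log2(normalised reads + 1), with its standard error (SE) and an adjusted p over all 19189 genes from limma, and a gene passed the test at an adjusted p under 0.05. The libraries held 15199656 to 32066246 recovered reads. The 4 libraries of day 5 stood apart: they detected 19885 to 20774 genes against at least 22875 in each of the other 12, and their 10 highest genes took 10.3 to 14.8% of reads against at most 7.06% elsewhere. Scaling to total reads in place of the deposited factors moved the median difference of all genes by -0.58 for day 5 against day 0 with Topsym and by -0.33 for the same days of SDS alone. Where this changes a direction below, it is said beside the result.

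Of the 10 genes, 9 had their highest group mean at day 0 with Topsym, and all 10 were lower than that group on each later day of the arm. Against day 0 of SDS alone, all 10 were higher in day 0 skin with Topsym (10.8% of all genes were called higher), by 0.23 to 0.90 in log2 difference with a median of 0.37, while the median of all genes was 0.00. For 9 of the 10, both day 0 libraries with Topsym were above all 14 others, as in 6.53% of all genes; the exception was Nlrc5, which was highest at day 1 of SDS alone. Psmb8 and Psmb9 had the largest differences, 0.90 (SE 0.10, adjusted p = 6.6e-06) and 0.81 (SE 0.21, adjusted p = 0.011). Psmb10 came next with 0.79. On leaving out 1 library the difference was 0.89 to 0.91 for Psmb8, 0.68 to 0.94 for Psmb9 and 0.69 to 0.89 for Psmb10. Leaving out 1 library left 6 to 9 calls in place of 10, with 6 when SDS_D0_Topsym replicate 2 was left out: Tap2, Tapbp, Psmb9 and Nlrc5 then had adjusted p-values of 0.13, 0.122, 0.102 and 0.0548, with all differences still above 0. With only these 4 libraries in the fit 8 genes were called, without B2m and Tapbp (adjusted p = 0.0506 and 0.0707).

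Against day 0 with Topsym, all 10 genes fell at day 1 (20.5% of all genes were called lower), all 10 at day 3 (28.2%) and all 10 at day 5 (37.5%). Their median log2 differences were -0.92, -1.53 and -1.52 at these days, and those of all genes were -0.03, -0.04 and -0.08. These comparisons share the 2 day 0 libraries, which are the highest for 9 of the genes. With day 0 of SDS alone as the baseline, an alternative chosen after the data had been seen, 8, 10 and 9 of the genes were lower at days 1, 3 and 5 with Topsym. H2-D1 and Nlrc5 at day 1 and Psmb10 at day 5 were then short of the threshold, with adjusted p-values of 0.852, 0.562 and 0.113.

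In SDS alone the fall was smaller and less uniform. At day 1 against day 0, 6 genes were lower (13.5% of all genes were called lower) and 1, Nlrc5, was higher (12.8% higher). At day 3 against day 0, 9 were lower (24.2% of all genes), all but Psmb10. At day 5 against day 0, 9 were lower (35.8%), all but H2-D1. The median log2 differences were -0.42, -0.64 and -0.61, against -0.03, -0.01 and -0.09 for all genes. From day 3 to day 5 with Topsym, 3 genes rose and 3 fell (27.1% and 35.1% of all genes), and with scaling to total reads 9 fell. Over the same days of SDS alone 4 rose and 1 fell (28.9% and 34.5%), but with scaling to total reads 2 rose and 5 fell, so that step depends on the scaling. The call of Psmb9 at day 1 of SDS alone was lost without SDS_D0 replicate 2 (adjusted p = 0.145) and without SDS_D1 replicate 1 (adjusted p = 0.12).

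Set against SDS alone on the same day, the genes with Topsym stood higher at day 0 and lower later. At day 1, 2 genes were lower (4.29% of all genes), H2-K1 and Nlrc5. The count at day 1 was 1 without either Topsym library or without SDS_D1 replicate 1, in each case because H2-K1 lost its call (adjusted p = 0.106 to 0.162), and it was 5 without the day 5 libraries in the fit. At day 3, 6 were lower and 1, Nlrc5, was higher (22.9% and 20.8%), with a median of -0.40. At day 5, 9 were lower and 1, Psmb10, was higher (24.2% and 22.6%), with a median of -0.52, and that of all genes was -0.04 at day 3 and -0.01 at day 5.

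**Figure D1:**
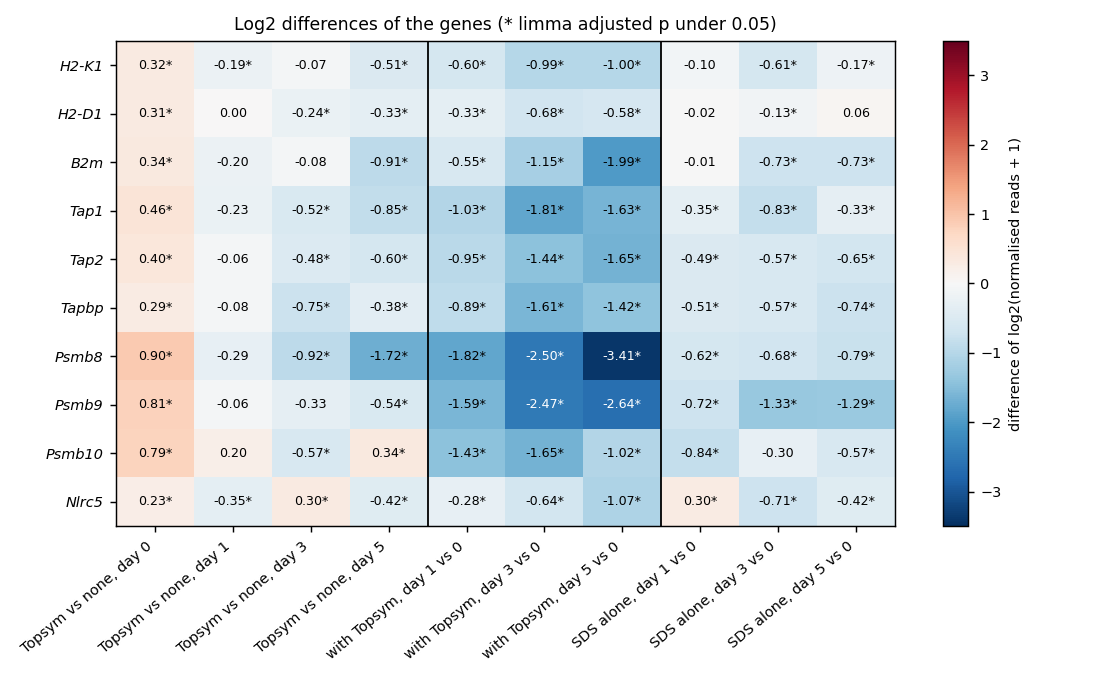
Differences of log2(normalised reads + 1) for the 10 genes, with 1 column for each comparison of Topsym against none and of each later day against day 0; colour gives the size and sign, and * an adjusted p under 0.05 of limma with 2 libraries a group. All 10 differences in the Topsym against none, day 0 column are above 0, and all 30 of the later days against day 0 with Topsym are below 0, with -3.41 of Psmb8 at day 5 the lowest.

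Whether the arms changed by unequal amounts since day 0 was tested in the same fit, as the change with Topsym minus the change in SDS alone. It was below 0 and past the threshold for 9 of the 10 genes at day 1 (8.06% of all genes were called lower), for 9 at day 3 (19.5%) and for 9 at day 5 (17.7%). The gene short of the threshold was Psmb9 at day 1 (adjusted p = 0.057), Nlrc5 at day 3 (0.53) and Psmb10 at day 5 (0.065). All 3 tests share the day 0 libraries, where the genes already differed, so each value holds the day 0 difference with its sign turned round. For some genes that difference was as large as the value at day 1 or larger. H2-D1 had a value of -0.31 and a day 0 difference of 0.31, and Psmb10 had -0.58 and 0.79. At day 1 itself these genes differed between the arms by 0.0045 and 0.20.

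The heavy chains had the steadiest levels of the 10 genes. H2-K1 and H2-D1 encode the classical class I heavy chains that present peptide to CD8 T cells. With Topsym, H2-K1 stood at 37598 and 38483 normalised reads at day 0, 24919.7 and 25133 at day 1, 18824 and 19380.1 at day 3, and 19339.9 and 18752 at day 5. In SDS alone, H2-K1 stood at 29822 and 31320.2 at day 0, 29157 and 28038 at day 1, 20761 and 19282 at day 3, and 25888 and 28336 at day 5. The arms overlapped only at day 3, where both were low, and SDS alone was higher again at day 5 while the Topsym arm was not. Libraries of the arms did not overlap for 60.9% of all genes at day 0, 54.3% at day 1 and 63.8% at day 5. Against day 0 the log2 difference at day 5 was -0.998 with Topsym (SE 0.05, adjusted p = 1.5e-11) and -0.17 in SDS alone (SE 0.05, adjusted p = 0.0052). Without SDS_D5 replicate 1 or SDS_D0 replicate 2 the adjusted p in SDS alone was 0.0969 or 0.0553.

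With Topsym, H2-D1 stood at 33997 and 35782 normalised reads at day 0, 27742 and 27820.3 at day 1, 21582 and 21965 at day 3, and 24041 and 22499.9 at day 5. In SDS alone, H2-D1 stood at 27166 and 29115 at day 0, 28735 and 26691 at day 1, 26460.3 and 24928 at day 3, and 28571 and 29925 at day 5. H2-D1 was the least variable of the 10, with 1.60-fold between its highest and lowest group mean, and in SDS alone its day 5 libraries overlapped those of day 0. The day 5 against day 0 log2 difference of H2-D1 was -0.58 with Topsym (SE 0.05, adjusted p = 2.7e-08) and 0.06 in SDS alone (95% interval of the difference -0.05 to 0.17, adjusted p = 0.35). With scaling to total reads the difference in SDS alone was -0.28 (adjusted p = 6.5e-05). The fall of H2-D1 at day 3 of SDS alone, -0.13 (adjusted p = 0.044), was short of the threshold without SDS_D0 replicate 2 (adjusted p = 0.31) and without SDS_D3 replicate 2 (adjusted p = 0.295). Class I heavy chain genes have near-identical copies, so reads of H2-K1, H2-D1 and other H2 genes may have been shared or dropped, and the alleles of the mice are not known.

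B2m, the light chain that every class I molecule needs, fell further than the heavy chains. With Topsym, B2m stood at 34955 and 31873 normalised reads at day 0, 22688 and 22848 at day 1, 14833 and 15171 at day 3, and 7638 and 9249.8 at day 5. In SDS alone, B2m stood at 27428 and 25180.0 at day 0, 26157 and 26046 at day 1, 15754 and 15988 at day 3, and 16119 and 15553 at day 5. In SDS alone B2m was flat to day 1 and then stayed at a lower level, while with Topsym each later day was below the one before, with no overlap between days. With Topsym, 73.2% of all genes did not overlap between days 0 and 1, and 79.2% did not between days 3 and 5. The day 5 against day 0 log2 difference of B2m was -1.99 with Topsym (SE 0.07, adjusted p = 1.5e-13) and -0.73 in SDS alone (SE 0.07, adjusted p = 8.3e-08). At day 5, B2m was lower with Topsym than in SDS alone by a log2 difference of -0.91 (SE 0.07, adjusted p = 2.5e-08), and at day 3 by -0.08 (adjusted p = 0.38). Per kilobase of exon, B2m was the highest of the 10 genes in each group, with group means of 9818 to 38853 normalised reads per kilobase, against 6483 to 12948 for H2-K1 and 8443 to 13528 for H2-D1.

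**Figure D2:**
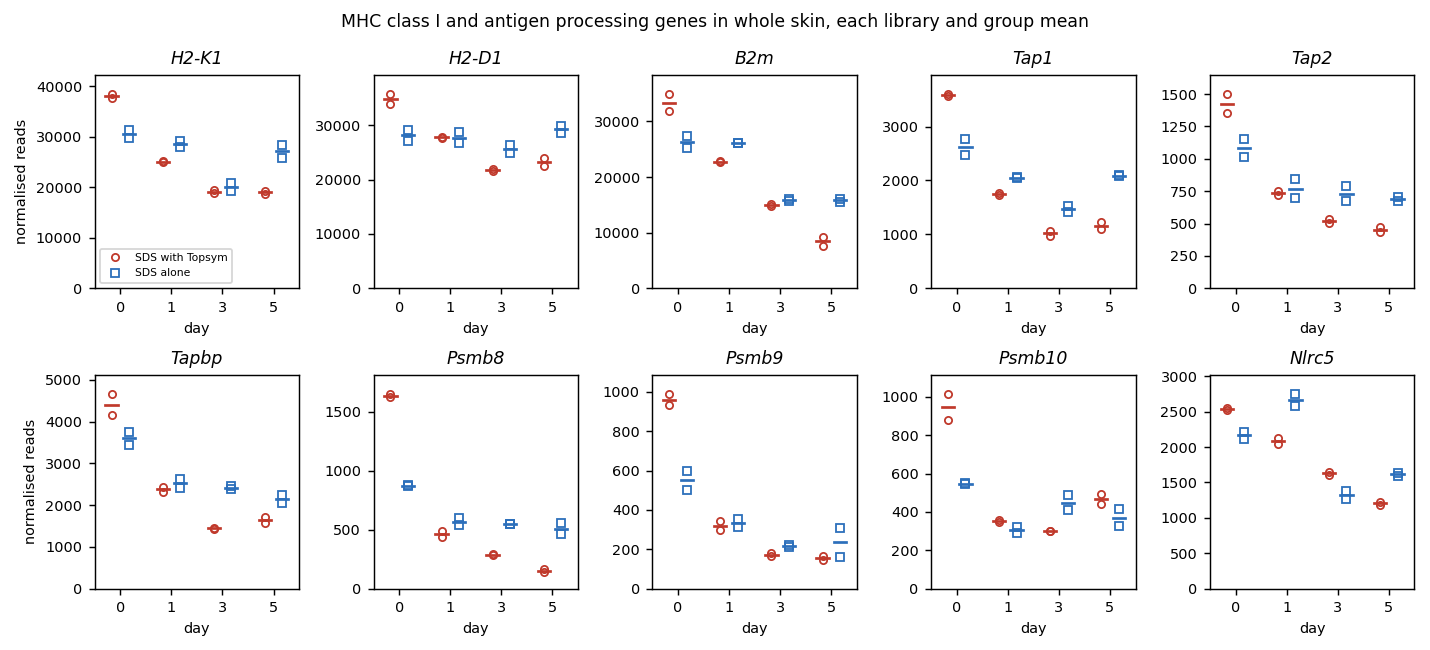
Normalised reads of the 10 genes in each library (points) and the mean of 2 libraries (bars) by day, with SDS with Topsym to the left of SDS alone; each panel has its own axis from 0. Day 0 with Topsym is the highest group for 9 genes, and for Psmb8 the Topsym means run from 1638 at day 0 to 153 at day 5.

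Both chains of the peptide transporter and tapasin fell in each arm, by more with Topsym. Tap1 and Tap2 form the TAP transporter. With Topsym, Tap1 stood at 3575 and 3606 normalised reads at day 0, 1772 and 1732 at day 1, 978 and 1071 at day 3, and 1091 and 1230.1 at day 5. In SDS alone, Tap1 stood at 2467 and 2779 at day 0, 2051 and 2059.9 at day 1, 1526 and 1422 at day 3, and 2097 and 2080.4 at day 5. From day 1 on, both libraries with Topsym were below both of SDS alone, and Tap1 was lowest at day 3 in each arm. Libraries of the arms did not overlap, in either direction, for 54.3%, 73.9% and 63.8% of all genes at days 1, 3 and 5. At day 1 the log2 difference of Tap1 between the arms, -0.23, was short of the threshold. Against SDS alone the log2 difference of Tap1 was -0.52 at day 3 (SE 0.07, adjusted p = 1.2e-05) and -0.85 at day 5 (SE 0.07, adjusted p = 8.1e-08). From day 3 to day 5 the log2 difference of Tap1 was 0.18 with Topsym (adjusted p = 0.038; -0.32 with scaling to total reads) and 0.50 in SDS alone (adjusted p = 1e-05). The call with Topsym was lost without SDS_D3_Topsym replicate 1 or SDS_D5_Topsym replicate 2 (adjusted p = 0.286 and 0.332).

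With Topsym, Tap2 stood at 1351 and 1501 normalised reads at day 0, 724 and 749 at day 1, 508 and 538 at day 3, and 438 and 469.7 at day 5. In SDS alone, Tap2 stood at 1015 and 1150.0 at day 0, 846 and 695 at day 1, 787 and 676 at day 3, and 703 and 677 at day 5. In SDS alone Tap2 kept to 1 lower range from day 1, where the days overlap, while with Topsym each day was below the one before. Against SDS alone the log2 difference of Tap2 was -0.48 at day 3 (SE 0.10, adjusted p = 0.0012) and -0.60 at day 5 (SE 0.10, adjusted p = 0.00016). Over the 8 group means, Tap2 followed the mean of the other 9 genes most closely of all (Pearson r = 0.989), a description over means that share libraries and scaling.

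Tapbp encodes tapasin, the bridge between the transporter and the class I molecule. With Topsym, Tapbp stood at 4153 and 4655 normalised reads at day 0, 2444 and 2310.4 at day 1, 1447 and 1436 at day 3, and 1720.4 and 1572 at day 5. In SDS alone, Tapbp stood at 3448 and 3742 at day 0, 2631 and 2403 at day 1, 2457 and 2382 at day 3, and 2052 and 2239 at day 5. Tapbp had dropped by day 1 in each arm, and the arms overlapped at day 1 but not at days 3 and 5. On those later days 73.9% and 63.8% of all genes did not overlap between the arms. The log2 difference of Tapbp between the arms was -0.75 at day 3 (SE 0.07, adjusted p = 2.3e-07) and -0.38 at day 5 (SE 0.07, adjusted p = 0.00034; 0.0549 with only those 4 libraries fitted).

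Of the 10 genes, the immunoproteasome subunits Psmb8 and Psmb9 had the widest range of group means. Psmb8 is the chymotrypsin-like subunit of the immunoproteasome, also called LMP7. With Topsym, Psmb8 stood at 1649.6 and 1626 normalised reads at day 0, 487 and 438 at day 1, 281 and 295 at day 3, and 143 and 163 at day 5. In SDS alone, Psmb8 stood at 869 and 879.9 at day 0, 598 and 538 at day 1, 547 and 547 at day 3, and 462 and 553 at day 5. The Topsym libraries were above those of SDS alone at day 0 and below them at each later day, with no overlap. Such a lack of overlap, in either direction, held for 60.9%, 54.3%, 73.9% and 63.8% of all genes at days 0, 1, 3 and 5. At day 1 the log2 difference of Psmb8 between the arms, -0.29, was short of the threshold. Psmb8 fell by 3.41 on the log2 scale at day 5 against day 0 with Topsym (SE 0.10, adjusted p = 2.8e-14) and by 0.79 in SDS alone (SE 0.10, adjusted p = 4.8e-06). Its highest group mean was 10.7-fold its lowest.

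Psmb9, or LMP2, is the subunit that replaces Psmb6. With Topsym, Psmb9 stood at 933 and 988 normalised reads at day 0, 341 and 296 at day 1, 182 and 164 at day 3, and 143 and 165 at day 5. In SDS alone, Psmb9 stood at 500.3 and 600.2 at day 0, 313 and 353 at day 1, 224 and 209.9 at day 3, and 162 and 309 at day 5. Psmb9 fell in each arm, and the 2 day 5 libraries of SDS alone differed from each other by more than the arms did. The log2 difference of Psmb9 at day 5 against SDS alone was -0.54 (SE 0.21, adjusted p = 0.046). It was short of the threshold without SDS_D5 replicate 2 (-0.08, adjusted p = 0.73), without SDS_D5_Topsym replicate 1 (-0.44, adjusted p = 0.182) and without SDS_D5_Topsym replicate 2 (-0.64, adjusted p = 0.0523). Psmb9 and Tap1 are the pair of members that overlap each other on opposite strands.

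Psmb10, or MECL-1, is the subunit that replaces Psmb7. With Topsym, Psmb10 stood at 881 and 1013 normalised reads at day 0, 346 and 356 at day 1, 302 and 298 at day 3, and 439.7 and 492 at day 5. In SDS alone, Psmb10 stood at 549 and 545 at day 0, 321 and 288 at day 1, 486 and 408 at day 3, and 324 and 417 at day 5. Psmb10 was lower with Topsym than in SDS alone at day 3 and higher at day 5, with no overlap on either day. Of all genes, 73.9% did not overlap between the arms at day 3 and 63.8% at day 5. The log2 difference of Psmb10 between the arms was -0.57 at day 3 (SE 0.13, adjusted p = 0.0015) and 0.34 at day 5 (SE 0.13, adjusted p = 0.039). The day 5 call of Psmb10 was lost without SDS_D5 replicate 1 (0.16, adjusted p = 0.368), without SDS_D5_Topsym replicate 2 (0.26, adjusted p = 0.188), with scaling to total reads (0.11, adjusted p = 0.516) and in edgeR and DESeq2 (adjusted p = 0.0518 and 0.0558).

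Set against the constitutive subunit it replaces, each immunoproteasome subunit had a larger share at day 0 with Topsym than at day 0 of SDS alone. Of its pair with Psmb6, Psmb9 made up 25.2 and 26.5% at day 0 with Topsym, against 16.8 and 18.4% in SDS alone. Of its pair with Psmb7, Psmb10 made up 47.9 and 52.9% at day 0 with Topsym, against 35.6 and 36.8% in SDS alone. Psmb8 made up 60.0 and 63.3% of the reads of Psmb8 and Psmb5 together in day 0 skin with Topsym, against 43.5 and 45.8% in day 0 skin of SDS alone. At day 5, Psmb8 made up 3.61 and 4.59% of the pair with Topsym, against 18.1 and 20.7% in SDS alone. The share of Psmb8 thus fell on each later day in each arm, and lower with Topsym from day 1. Psmb5 moved the other way: it stood at 3828 and 3388 normalised reads at day 5 with Topsym and at 2089 and 2113 at day 5 in SDS alone, against 956 and 1086 at day 0 with Topsym and 1027 and 1143 at day 0 in SDS alone. Psmb9 made up 1.92 and 2.25% of its pair with Psmb6 at day 5 with Topsym, against 3.19 and 5.62% in SDS alone, and Psmb10 made up 18.8 and 21.6% of its pair with Psmb7 at day 5 with Topsym, against 17.0 and 20.01% in SDS alone. The last pair is the only one of the 3 whose libraries overlapped between the arms at day 5. Such a share is of reads, not of molecules, since the genes differ in length; it does not depend on the scaling of a library.

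**Figure D3:**
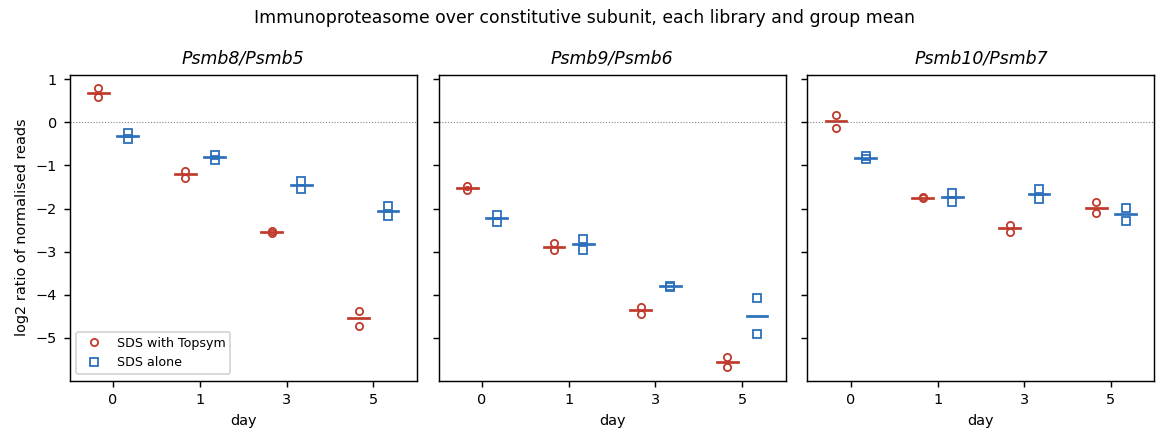
Log2 ratio of normalised reads of each immunoproteasome subunit over its constitutive counterpart, in each library (points) and as the mean of 2 (bars), with SDS with Topsym to the left of SDS alone at each day; the dotted line is an equal number of reads. The Psmb8 to Psmb5 ratio has means of 0.68 at day 0 and -4.55 at day 5 with Topsym, and -0.31 and -2.05 on the same days of SDS alone.

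Nlrc5, the transactivator, was highest at day 1 of SDS alone. With Topsym, Nlrc5 stood at 2519 and 2556 normalised reads at day 0, 2049 and 2124 at day 1, 1651 and 1603 at day 3, and 1188 and 1230.1 at day 5. In SDS alone, Nlrc5 stood at 2219 and 2112 at day 0, 2576 and 2747 at day 1, 1264 and 1376 at day 3, and 1636 and 1591 at day 5. Nlrc5 rose at day 1 of SDS alone, the only one of the 10 genes called higher then, and its day 3 level was higher with Topsym than without. The day 1 against day 0 log2 difference of Nlrc5 was -0.28 with Topsym (SE 0.06, adjusted p = 0.00093) and 0.30 in SDS alone (SE 0.06, adjusted p = 0.0011). Between the arms it was -0.35 at day 1 (SE 0.06, adjusted p = 0.00077), 0.30 at day 3 (SE 0.06, adjusted p = 0.00044) and -0.42 at day 5 (SE 0.06, adjusted p = 2.3e-05). Over the 8 group means, Nlrc5 and Psmb10 followed the mean of the other members least (r = 0.760 and 0.632), against 0.883 to 0.989 for the other 8.

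The signal that is known to raise these genes was followed in a list of interferon cytokines, receptors, STAT and IRF factors. Ifng, the interferon gamma gene, had 7.04 and 11.4 normalised reads in the day 0 libraries with Topsym, against 0 and 2.40 at day 0 of SDS alone, and 3.88 and 1.68 at day 1 of SDS alone. It was at 0 in the other 10 libraries, where a count of 0 allows up to 2.01 to 6.05 normalised reads (3 reads), and it did not pass the filter and was not tested. In day 0 skin with Topsym, 10 of 17 tested genes of the list were higher than in SDS alone, among them Irf7 (log2 difference 2.90), Stat2 (1.06) and Irf1 (0.46). At day 3 with Topsym 1 was higher and 13 lower than in SDS alone, and at day 5, 2 were higher and 10 lower.

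Other genes known as interferon gamma targets (guanylate-binding proteins, immunity-related GTPases and chemokines) were followed as well. Their summed level was 8154 to 8172 normalised reads at day 0 with Topsym, against 3920 to 4183 in SDS alone, and 428 to 478 at day 5 with Topsym, against 1328 to 1389 in SDS alone. In day 0 skin with Topsym, 7 of 16 were higher, among them Irgm1 (log2 difference 1.61), Iigp1 (1.73) and Gbp3 (1.32). At day 5 with Topsym, 1 was higher and 12 were lower than in SDS alone, and Cxcl10, a chemokine for T cells, was at 0 and 9.59 normalised reads with Topsym, against 8.54 and 31.2 in SDS alone. The 1 called higher was Tgtp2, at 12.1 and 9.59 normalised reads with Topsym, against 2.85 and 0 in SDS alone.

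The rest of the class I pathway did not move as 1 block. Among 19 tested other class I and class I-like genes, 7 were higher and 1 lower at day 0 with Topsym against SDS alone, and 2 were higher and 11 lower at day 5. Among those higher at day 0 were H2-T23 (log2 difference 0.55), the mouse Qa-1 gene whose product is read by NK cell receptors, H2-M3 (0.90), which presents formylated peptides, and Fcgrt (0.76), the neonatal Fc receptor. H2-Q4 (-1.91) and H2-Q6 (-2.28) were among those lower at day 5. Of 13 chaperones and peptidases of peptide loading and trimming, 1 was higher and 4 were lower at day 0 with Topsym, and 5 were higher and 1 lower at day 5; with scaling to total reads the day 5 counts were 4 and 4. Erap1, which trims peptides in the endoplasmic reticulum, was the 1 lower at day 5 (-0.54).

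The constitutive 20S proteasome was higher at days 3 and 5 than at day 0, but not at day 1, when Psmb8, Psmb9 and Psmb10 were already lower in each arm. At day 1 with Topsym 1 of its 14 genes was higher and 5 were lower than at day 0, and the median log2 difference was -0.11 with Topsym and -0.07 in SDS alone. At day 3, 12 were higher with Topsym and 14 in SDS alone. All 14 genes of the 20S core, with Psmb5, Psmb6 and Psmb7 among them, were higher at day 5 than at day 0 with Topsym (32.8% of all genes were called higher) and likewise in SDS alone (30.7%). With scaling to total reads 12 were higher and 1 lower with Topsym and 14 were higher in SDS alone. Their summed level was 62944 to 65155 normalised reads at day 5 with Topsym, against 29478 to 31520 at day 0 with Topsym. Psme1 and Psme2, which form the interferon-inducible PA28 cap of the proteasome, had log2 differences of 0.31 and 0.40 at day 5 against day 0 with Topsym, and both passed the test. With scaling to total reads these were -0.28 (adjusted p = 7.2e-05 in limma) and -0.19 (adjusted p = 0.18), so their direction depends on the scaling. Of 9 genes of PA28 and of proteasome assembly, 8 were higher at day 5 with Topsym against day 0, where 32.8% of all genes were, and with scaling to total reads 5 were higher and 1 lower.

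MHC class II genes, which mark professional antigen-presenting cells and need the related factor Ciita, were set beside class I. Of 8 tested class II genes, 0 passed the test in limma at day 0 with Topsym against SDS alone, where all 10 class I genes were higher; 2 had an unadjusted p under 0.05, both lower, and edgeR and DESeq2 each called 1. The summed class II level fell to 2885 to 2951 normalised reads at day 5 with Topsym, against 87214 to 93064 at day 0 with Topsym, and to 9626 to 9705 at day 5 of SDS alone, against 95389 to 99914 at day 0. A list of 14 genes held factors known at class I promoters, RFX, CREB, NF-Y and NF-kappaB proteins among them, and Nfkbia, whose product inhibits NF-kappaB. Of these, 1 was higher (Nfkbia, 0.45) and 1 lower (Atf1, -0.29) at day 0 with Topsym.

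**Figure D4:**
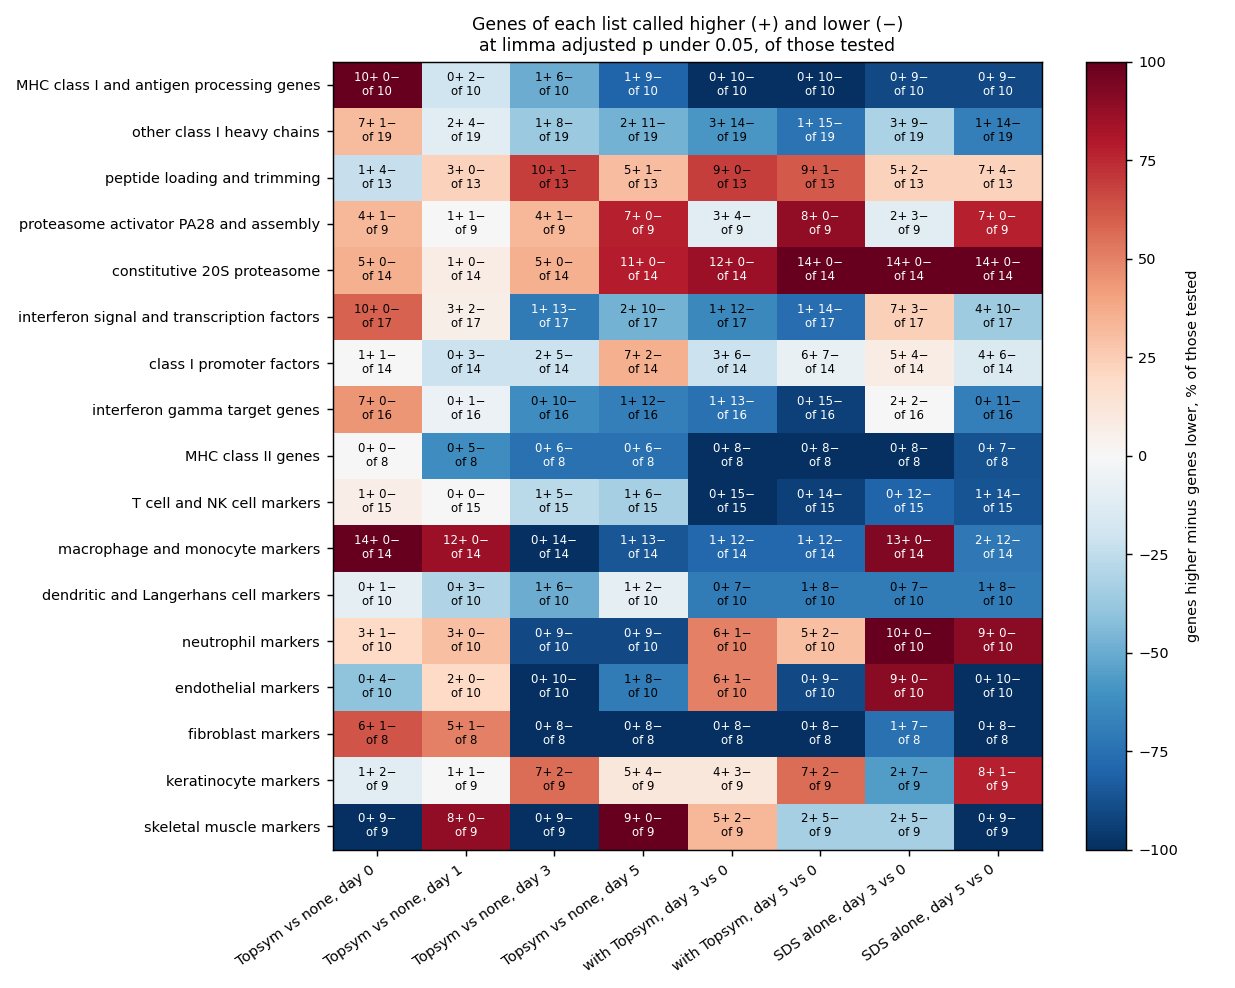
Genes of each list called higher (+) and lower (-) by limma at an adjusted p under 0.05, of those tested, with colour for the number higher minus the number lower as a share of those tested; columns give Topsym against none by day and later days against day 0. The 10 MHC class I and antigen processing genes and the 14 macrophage and monocyte markers are all higher in the Topsym against none, day 0 column, where all 9 muscle markers are lower.

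Markers of cell types also changed between the groups, some in the direction of these genes and some against it, and their part in the results was not tested. In bulk tissue, fewer cells of a type and less RNA per cell cannot be told apart. At day 0 with Topsym all 14 macrophage and monocyte markers were higher than in SDS alone, with a summed level of 72060 to 72938 normalised reads against 31702 to 32583, and none was at 0. All 9 skeletal muscle markers were lower there, with sums of 154983 to 158252 against 441115 to 445557. The summed T cell and NK cell markers, 17 genes, stood at 3179 to 3269 normalised reads at day 0 with Topsym, against 2591 to 2637 in SDS alone, with 1 of 15 tested called higher. These T cell and NK cell sums were 517 to 593 at day 3 and 917 to 1045 at day 5 with Topsym, against 636 to 669 and 931 to 994 on these days of SDS alone. The sums of day 5 rest on Trbc2, at 930 and 813 normalised reads with Topsym, against 700 and 659 in SDS alone, a gene named after its values were seen. By count, 1 of the 15 was higher and 7 were lower at day 5 than at day 3 with Topsym (27.1% and 35.1% of all genes). Over these days of SDS alone 1 was higher and 6 were lower (28.9% and 34.5%). With Topsym against SDS alone at day 5, 1 was higher and 6 were lower (22.6% and 24.2%). At day 5 with Topsym, Cd3d, Cd8b1, Ncr1, Klrb1c and Prf1 were at 0 in both libraries, and at day 5 of SDS alone Cd8b1, Ncr1 and Klrb1c were.

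Later days brought other shifts in markers. With Topsym, macrophage markers summed to 76424 to 76589 at day 1, 32836 to 33560 at day 3 and 12309 to 13311 at day 5. In SDS alone the sums were 44596 to 46464, 76844 to 78883 and 16986 to 17245 on these days. The macrophage sum of SDS alone was thus higher at day 3 than at day 0, while 9 of the 10 genes were lower (24.2% of all genes). Neutrophil markers, 11 genes, summed to 2800 to 2991 at day 3 and 36522 to 36645 at day 5 with Topsym, against 66056 to 66985 and 264567 to 273985 in SDS alone; Ly6g was at 0 in each group but day 3 of SDS alone. These day 5 sums rest on S100a8 and S100a9, which keratinocytes of irritated skin are also known to make: S100a9 alone stood at 27738 and 27973 normalised reads with Topsym, against 210535 and 220928 in SDS alone. By count, 3 of 10 tested neutrophil markers were higher and 3 lower at day 5 than at day 3 with Topsym (27.1% and 35.1% of all genes). In SDS alone 2 were higher and 8 lower over these days (28.9% and 34.5%). Keratinocyte markers summed to 2670951 to 2725803 normalised reads at day 5 with Topsym and 1811880 to 1925085 at day 5 of SDS alone, against 775217 to 797430 at day 0 with Topsym and 757743 to 796801 at day 0 of SDS alone, and 5 of 9 were higher and 4 lower with Topsym than in SDS alone at day 5. Fibroblast markers summed to 6890 to 6961 and 15512 to 15774 at day 5 of these arms, against 422998 to 430428 and 302778 to 310995 at day 0.

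Across the 12284 other genes with a mean of at least 100 normalised reads, the profile over 8 group means most like the mean of the 10 genes was that of B3gntl1 (Pearson r = 0.986), then Adh1 (0.979), Trerf1 (0.972), Ppic (0.972) and Tmsb4x (0.971). These values describe 8 group means that share libraries and scaling.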

How the data were processed

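RNA of whole mouse skin was measured in 16 libraries, 8 groups of 2, grouped by their titles. The deposited values are a normalised expression signal per gene; the submitters' processing notes name DESeq2 2.11.40.8, featureCounts 2.0.3, HISAT2 2.2.1, Trim Galore 0.6.7 and the build mm10. The strand setting of the counting and the annotation are not given in the sources used here. In each library 100% of values were whole multiples of 1 step, within 1e-04, so whole reads were recovered, 15199656 to 32066246 per library. Floors cover counting error only.

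The test covered the 19189 genes that reached 10 normalised reads in 2 or more libraries, on log2(value + 1) with limma 3.58.1 (trend) in R 4.3.3 over all 8 groups, with 8 residual degrees of freedom, Benjamini-Hochberg adjustment over all genes and a threshold of 0.05, in 15 comparisons. The fit was also run on counts simulated from the spread of these libraries, with few genes changed in 1 comparison. Many more genes were called in the comparisons here, so that run does not vouch for these p-values. The genes described, the gene lists and the tests were chosen with earlier results of these data known, so a pattern is not independent support. Named genes are the 10 members, the 5 genes most like their mean, and list genes given as examples. The alternatives tried were TMM scaling, no filter, a pseudocount of 4, only the libraries compared, a fit without the day 5 libraries, a replicate block, each library left out, and edgeR 4.0.16 and DESeq2 1.42.0 on recovered reads; scaling to total reads and day 0 of SDS alone as the baseline were added after the data had been seen. Gene positions are from GENCODE M21 (GRCm38) and promoter windows from RefSeq (GRCm38.p6).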

Additional observations from a re-analysis of the deposited data

Results flagged for a closer look

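Each result here compares the change since day 0 between the arms, as the log2 change with Topsym minus the log2 change in SDS alone, that passed an adjusted p of 0.05 in limma. A negative value means that the gene changed downward by more with Topsym. All of them use the day 0 libraries, where the 10 genes already stood higher with Topsym. H2-D1 and Psmb10 did not stand lower with Topsym than in SDS alone at day 1 itself (log2 differences 0.0045 and 0.20).

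At day 1 the differences were -0.51 for H2-K1, -0.31 for H2-D1, -0.54 for B2m, -0.69 for Tap1, -0.46 for Tap2, -0.37 for Tapbp, -1.20 for Psmb8, -0.58 for Psmb10 and -0.58 for Nlrc5. The largest, of Psmb8, had an adjusted p of 2.1e-05 in limma. Those of Tap2, Tapbp and Psmb10 were lost in 6, 4 and 6 of the 8 fits that left out 1 of the libraries compared.

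At day 3 they were -0.38 for H2-K1, -0.55 for H2-D1, -0.43 for B2m, -0.98 for Tap1, -0.88 for Tap2, -1.04 for Tapbp, -1.83 for Psmb8, -1.13 for Psmb9 and -1.36 for Psmb10. At day 5 they were -0.82 for H2-K1, -0.64 for H2-D1, -1.26 for B2m, -1.30 for Tap1, -1.003 for Tap2, -0.67 for Tapbp, -2.62 for Psmb8, -1.35 for Psmb9 and -0.65 for Nlrc5. At both days Psmb8 had the largest difference (adjusted p = 4.1e-08 and 7.5e-10 in limma), and no call of days 3 and 5 was lost in these fits.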

How the results depend on the processing

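Over the 15 comparisons and the alternatives run, 1911 values of single genes and of subunit ratios kept their direction and their side of the threshold, 83 lost a call, 39 gained one and 30 changed sign. Of Topsym against none at day 1, where 2 of the 10 genes were called, only the libraries compared gave 4, and the fit without day 5 libraries, edgeR and DESeq2 gave 5 each; leaving out 1 library gave 1 to 2, and 6 to 9 at day 0 in place of 10. Over all genes, Topsym against none at day 1 had 1881 calls, 2835 without the day 5 libraries and 921, 924 or 999 without either Topsym library or SDS_D1 replicate 1; at day 5 it had 8976 calls and 4028 with only those libraries fitted. A pseudocount of 4 gave a Psmb9 to Psmb6 log2 ratio of -3.79 at day 3 of SDS alone, -3.81 with 1. The causes were not tested.

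Apart from scaling to total reads, the values that changed sign were small as first reported, the largest being -0.11 of Psmb8 for day 5 against day 3 of SDS alone. Psmb9 for day 5 against day 3 of SDS alone (0.05) turned to -0.42 without SDS_D5 replicate 2 (adjusted p = 0.036) and was 0.51 without SDS_D5 replicate 1 (adjusted p = 0.012), so that step of Psmb9 rests on which day 5 library is used. At day 1 of SDS alone, B2m was 2.2e-04 with TMM, 9.6e-04 with total reads and 0.0041 with edgeR, and -0.072 to 0.052 on leaving out 1 library, with H2-D1 -0.075 to 0.031. For day 5 against day 3 of SDS alone, B2m was 0.018 with TMM and 0.044 with edgeR, and total reads gave -0.070 for H2-D1 and -0.21 for Psmb9; leaving out 1 library gave -0.029 to 0.022 for B2m, -0.19 to 0.031 for Tap2 and -0.24 to 0.015 for Psmb8. With Topsym over the same days, total reads gave -0.41 for H2-D1, -0.32 for Tap1 and -0.31 for Tapbp, and H2-K1 was 0.0031 with edgeR and -0.027 to 0.018 on leaving out 1 library. In Topsym against none at day 1, H2-D1 was -0.0095 with TMM, -0.029 with total reads and -0.015 with edgeR, and leaving out 1 library gave -0.049 to 0.058 for H2-D1, -0.20 to 0.083 for Tap2 and -0.16 to 0.039 for Psmb9. H2-D1 at day 5 of SDS alone was -0.28 with total reads.

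Scaling to total reads shifted the median of all genes by -0.50 for day 5 against day 3 with Topsym and -0.26 in SDS alone, -0.23 for Topsym against none at day 5 and -0.25 for the difference of changes at day 5. Calls that were higher then made up 22.8% in place of 46.6% for day 5 against day 0 with Topsym and 29.8% in place of 46.2% in SDS alone, 19.95% in place of 43.6% for day 5 against day 3 with Topsym and 31.7% in place of 45.6% in SDS alone, 26.0% in place of 48.3% for Topsym against none at day 5, 25.1% in place of 49.4% for the day 5 difference of changes, 45.5% in place of 56.2% for Topsym against none at day 1, and 43.0% in place of 53.3% for the day 1 difference of changes. Under it 10 of the genes were lower at day 5 of SDS alone and 9 at day 5 of Topsym against none.

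Replicate numbers did not pair libraries: deviations of same-numbered libraries had correlations of -0.031 to 0.030 over 28 pairs of groups. With the replicate number as a block 3 calls were lost, those of H2-D1 at day 3 of SDS alone (-0.13, adjusted p = 0.0567), Tapbp for day 5 against day 3 of SDS alone (-0.17, adjusted p = 0.0518) and Tap2 in the day 1 difference of changes (-0.46, adjusted p = 0.0534). With 2 libraries a group, only differences well above this spread can be seen.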

Other observations

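The 10 genes together took 0.598 to 0.603% of recovered reads at day 0 with Topsym, against 0.464 to 0.473% at day 0 of SDS alone, and 0.183 to 0.185% at day 5 with Topsym. Socs1, a brake on interferon signalling, averaged 170 normalised reads at day 0, 78.9 at day 1, 159 at day 3 and 131 at day 5 with Topsym, against 145, 75.2, 148 and 183 on these days of SDS alone (n = 2 each). Socs1 was lower at day 1 than at day 0 in each arm, by log2 differences of -1.10 with Topsym and -0.91 in SDS alone (adjusted p = 0.0014 and 0.0088 in limma), and did not pass the test at days 3 and 5. Endothelial markers, 10 genes, summed to 5004 to 5206 normalised reads at day 3 with Topsym, against 12322 to 12641 in SDS alone, and adipocyte markers, 7 genes, to 35851 to 35857 against 51443 to 51978, with 2 of the 7 higher and 2 lower. Dendritic and Langerhans cell markers, 10 genes, summed to 5850 to 6032 at day 0 with Topsym, against 6630 to 6767 in SDS alone.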
